A study of Mus musculus with 12 samples.

Results

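*Slco4a1*, *Mfsd2a*, *Tmem82* and *Cend1* are 4 of the 14159 genes listed for mouse inguinal white adipose tissue (iWAT). They were selected by their measured values, namely low counts at room temperature (RT) and large rises after cold exposure in both genotypes, so those values are given as a description without a test. The 12 libraries fell into 4 groups of 3 biological replicates, Atf4WT and Atf4AKO iWAT at RT and after 24 h of cold. Atf4AKO mice carried floxed *Atf4* alleles and *Adipoq*-Cre, which is active in adipocytes of every fat depot, and floxed littermates without the knockout served as Atf4WT, all on a C57BL/6 background. Whole tissue was sequenced, so the other cells of the depot kept *Atf4* in both genotypes. The age and sex of the mice of these libraries are not given in the sources used here. In the main fit, p-values set a difference of means against a spread between replicate libraries that is shared by the 4 groups.

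In the cold, noradrenaline from sympathetic nerves acts on beta-adrenergic receptors of adipocytes and raises cyclic AMP, and the beige adipocytes of iWAT then switch on *Ucp1*, the mitochondrial uncoupling protein, with genes of fatty acid uptake and oxidation. *Slco4a1* encodes a plasma membrane carrier of the organic anion transporter family, whose members carry substrates such as thyroid hormones and prostaglandins. *Mfsd2a* encodes a sodium-dependent carrier that brings lysophosphatidylcholine with long-chain fatty acids such as docosahexaenoic acid into cells, best known from the blood-brain barrier. *Tmem82* encodes a predicted multi-pass membrane protein whose function is little described. *Cend1* (cell cycle exit and neuronal differentiation 1) encodes a membrane protein best known from neurons that leave the cell cycle.

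The libraries held 25719476 to 29105147 reads on the listed genes, and values are normalized counts, the reads of a gene divided by the size factor of its library. *Atf4* itself had 4815 ± 791 normalized counts in Atf4WT and 1568 ± 87.9 in Atf4AKO iWAT at RT, and 6970 ± 1054 and 1182 ± 395 in the cold (SD, n = 3), with no overlap between genotypes (limma adjusted p 0.0762 at RT and 0.000644 in the cold). Over all tested genes 17% were called higher and 14.9% lower in the cold in Atf4WT iWAT, and 14.8% and 11% in Atf4AKO iWAT. Of the marker lists, all 11 listed B cell markers and all 17 listed T cell markers rose in cold Atf4WT iWAT and none rose in cold Atf4AKO iWAT. Their mean log2 value ranged from 3.72 to 6.89 and from 4.03 to 5.09 at RT, and from 7.07 to 9.69 and from 3.35 to 5.03 in the cold (Atf4WT, then Atf4AKO). The summed level of 10 fibroblast and progenitor markers was 130008 to 157768 and 127079 to 186879.8 normalized counts at RT and 37552 to 88605 and 34992 to 79434 in the cold, lower without overlap in both genotypes as the 4 genes were higher. Of the 10, 2 and 3 were called lower and none higher (medians -0.99 and -1.03), where 14.9% and 11% of all tested genes were called lower. The part of this marker level in the cold values of the 4 genes was not tested. All 10 adipocyte markers were listed, with a sum between 1061582 and 1601937 normalized counts in every library. The summed level of 8 skeletal muscle markers ranged from 1827 to 109405 in the Atf4WT libraries at RT and from 1519 to 38854 in those from the cold. In the Atf4AKO libraries it ranged from 1658 to 1766 at RT and from 1456 to 5922 in the cold. The median log2 difference of these markers, Atf4AKO minus Atf4WT, was -2.87 at RT and -1.52 in the cold, with 0 called. The part of muscle RNA in the genotype differences was not tested.

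The 4 genes lie at 4 separate loci of the mm10 genome, each annotated as protein-coding. *Slco4a1* (chr2:180456245-180474867, plus strand) is listed under NR_149314, a non-coding transcript accession of this gene. *Mfsd2a* (NM_029662) covers chr4:122946850-122961188 on the minus strand, and *Tmem82* (NM_145987) covers chr4:141613376-141618633 on the minus strand of the same chromosome. *Cend1* (NM_021316) covers chr7:141426446-141429491 on the minus strand.

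The bases before the annotated starts are shown because the 4 genes were low and high in the same groups, and because short motifs of cold- and ATF4-related factors can be looked up in them. RefSeq (GRCm38.p6) gave start sites for 3 of the 4 genes, 2 of them for *Slco4a1*, and none was found for *Tmem82*. Each sequence is 5′ to 3′ on the strand of the gene and ends at the base before the start, and capitals mark the nuclear receptor half-site AGGTCA or its complement.
Slco4a1, start 1, chr2:180455995-180456244, plus strand: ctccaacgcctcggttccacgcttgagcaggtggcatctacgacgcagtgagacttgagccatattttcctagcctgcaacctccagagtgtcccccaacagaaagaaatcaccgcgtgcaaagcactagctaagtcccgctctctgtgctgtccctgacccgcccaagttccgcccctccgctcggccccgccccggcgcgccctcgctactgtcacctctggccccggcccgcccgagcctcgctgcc
Slco4a1, start 2, chr2:180460728-180460977, plus strand: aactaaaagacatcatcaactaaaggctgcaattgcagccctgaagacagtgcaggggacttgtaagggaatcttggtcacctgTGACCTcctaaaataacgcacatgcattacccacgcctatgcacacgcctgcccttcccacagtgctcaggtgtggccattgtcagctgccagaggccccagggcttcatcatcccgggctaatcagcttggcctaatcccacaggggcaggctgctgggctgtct
Mfsd2a, chr4:122961189-122961438, minus strand: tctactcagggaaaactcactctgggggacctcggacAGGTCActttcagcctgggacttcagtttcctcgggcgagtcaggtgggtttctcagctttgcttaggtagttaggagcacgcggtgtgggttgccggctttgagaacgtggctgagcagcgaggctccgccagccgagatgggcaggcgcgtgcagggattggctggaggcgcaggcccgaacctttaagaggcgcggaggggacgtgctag
Cend1, chr7:141429563-141429743, minus strand, the 181 bases that lie outside the exons of the next gene: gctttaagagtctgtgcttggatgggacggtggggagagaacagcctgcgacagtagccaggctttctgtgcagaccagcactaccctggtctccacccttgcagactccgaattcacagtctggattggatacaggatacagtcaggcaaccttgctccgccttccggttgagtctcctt

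In the 250 bases before each start, both strands were searched for 7 motifs that may overlap one another. The half-site AGGTCA, part of the binding sites of many nuclear receptors, was found 213 bases before the start of *Mfsd2a* and, on the opposite strand, 166 bases before the second start of *Slco4a1*. It is in 14% of all 32851 promoters of this length. The cAMP response element TGACGTCA, its half-site TGACG, the estrogen-related receptor element TCAAGGTCA, the ATF4 composite element TGATGNAA, the C/EBP element TTGCGCAA and the E-box CACGTG were not in the 4 windows. Their shares of all promoters were 1.55%, 17.8%, 0.387%, 3.45%, 0.164% and 6.02%, in that order. The windows differed in base composition, with 64.8% and 54.8% G and C at the 2 starts of *Slco4a1*, 61.6% at *Mfsd2a* and 46% at *Cend1*, against a median of 52.4% over all promoters.

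*Slco4a1*, the organic anion carrier, was the lowest of the 4 genes at RT. Its normalized counts were 2.76, 1.92 and 5.56 in the Atf4WT libraries at RT and 0.93, 2.99 and 1.86 in the Atf4AKO libraries at RT. They were 77, 116 and 76.3 in Atf4WT and 37.2, 112 and 69.8 in Atf4AKO after cold exposure. Every cold library lay above every RT library, as the selection favours, and the lowest cold value was that of 1 Atf4AKO library. The cold log2 fold change was 4.42 ± 0.47 in Atf4WT and 4.59 ± 0.47 in Atf4AKO (SE), on the scale of log2(normalized count + 1). The RT values rest on 11 reads summed over the Atf4WT libraries and 6 over the Atf4AKO libraries, so the ratios of summed reads, 26 in Atf4WT and 38 in Atf4AKO, have wide exact 95% intervals, 14.3 to 52.7 and 17.2 to 105. These intervals cover counting error only.

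*Mfsd2a*, the lysophosphatidylcholine carrier, had 14.7, 11.5 and 12.1 normalized counts in Atf4WT and 16.7, 18.9 and 13 in Atf4AKO iWAT at RT. After cold exposure it had 130.5, 219.5 and 332 in Atf4WT and 274, 498 and 657 in Atf4AKO. The RT values were the tightest of the 4 genes, with 1.27-fold and 1.46-fold between the highest and the lowest library of a genotype. Of the cold libraries, those of Atf4WT spread 2.55-fold and those of Atf4AKO 2.39-fold, and the highest Atf4WT library exceeded the lowest Atf4AKO library. The cold log2 fold change was 3.96 ± 0.37 in Atf4WT and 4.72 ± 0.37 in Atf4AKO, with ratios of mean counts of 17.8 and 29.4.

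*Tmem82*, the membrane protein of little described function, had 8.27, 1.92 and 9.27 normalized counts in Atf4WT and 2.79, 11 and 11.1 in Atf4AKO iWAT at RT. After cold exposure the values were 166, 213 and 94.2 in Atf4WT and 114, 214 and 147 in Atf4AKO. One RT library of each genotype was 6 or more normalized counts under the other two, and the cold values of the genotypes lay in nearly the same range. The means in the cold were 158 ± 60 and 158 ± 51.2, and the cold log2 fold changes were 4.53 ± 0.58 in Atf4WT and 4.23 ± 0.58 in Atf4AKO.

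*Cend1*, the neuronal differentiation gene, had 9.19, 8.66 and 4.64 normalized counts in Atf4WT and 3.72, 8.96 and 2.78 in Atf4AKO iWAT at RT. After cold exposure it had 113, 186 and 79.1 in Atf4WT and 103, 236 and 75.2 in Atf4AKO. In each genotype 1 cold library stood above the other 2, and the lowest cold library was still above every RT library, as the selection favours. The cold log2 fold changes were 3.86 ± 0.51 in Atf4WT and 4.46 ± 0.51 in Atf4AKO, with ratios of mean counts of 16.8 and 26.8. Of 22 markers of neurons and sympathetic nerves 11 were listed and 7 were tested. At the adjusted threshold limma called 0 of the 7 in either genotype, edgeR and DESeq2 called 1 in each, and 2 in Atf4WT and 1 in Atf4AKO had an unadjusted limma p under 0.05. Over all tested genes limma called 17% higher and 14.9% lower in Atf4WT and 14.8% and 11% in Atf4AKO. The 7 genes are too few to tell a count of 0 or 1 from these shares. Of the 7, 4 in Atf4WT and 3 in Atf4AKO had a positive cold log2 fold change, with medians of 0.09 and -0.20. One of the positive markers was *Elavl3*, with 0.872 and 0.976. The summed level of the 11 listed markers was 386 to 467 and 346 to 469 normalized counts at RT and 292 to 494 and 274 to 422 in the cold (Atf4WT, then Atf4AKO).

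**Figure D1:**
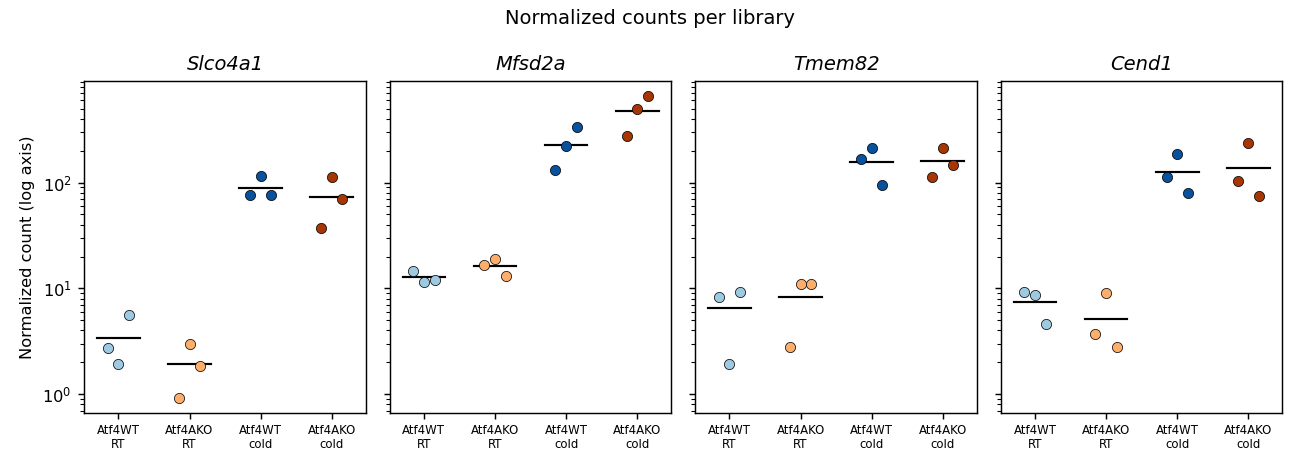
Normalized counts of *Slco4a1*, *Mfsd2a*, *Tmem82* and *Cend1* in each of the 12 libraries on a log axis, one panel per gene, with a point for each library and a bar for the mean of the group. In each panel the cold libraries lie above all RT libraries, and the genotypes overlap at both temperatures. The genes were chosen for low RT counts and large cold rises, so the separation by temperature follows from the selection.

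All 4 genes passed the filter of a mean of 10 normalized counts over the 12 libraries, which 13404 genes passed and 755 did not, and the genes other than *Mfsd2a* passed it through their cold values alone. In the same fit 17% of the tested genes rose and 14.9% fell in the cold in Atf4WT iWAT, and 14.8% rose and 11% fell in Atf4AKO iWAT, with a median log2 fold change over all genes of 0.00 and -0.03. In order of the log2 fold change, *Slco4a1* ranked 16 and 9, *Mfsd2a* 33 and 5, *Tmem82* 12 and 13 and *Cend1* 37 and 11 (Atf4WT, then Atf4AKO), whereas *Ucp1* ranked 3 in both. The selection itself puts the genes near the top of this order.

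The rule of the selection names no numbers, so the extremes of the 4 genes serve here as bounds: a mean at RT of at most 12.8 normalized counts in Atf4WT and 16.2 in Atf4AKO, set by *Mfsd2a*, and a cold log2 fold change of at least 3.86 in Atf4WT, set by *Cend1*, and 4.23 in Atf4AKO, set by *Tmem82*. As low as this at RT were 256 tested genes. Genes under the filter are not in this count, nor are genes without reads in some library, which are not listed. Since the bounds come from the 4 genes themselves, that no other gene met all of them is no finding. Just outside was *Pigr*, the receptor that carries polymeric immunoglobulins across epithelia, with log2 fold changes of 3.68 and 3.74 and means of 7.16 and 7.85 normalized counts at RT and 103 and 112 in the cold. *E030018B13Rik* followed with 3.92 and 3.0, and *Slc6a19*, a neutral amino acid carrier, had 3.44 and 2.69.

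Without the bound on the RT level, 11 tested genes rose as much in both genotypes, the 4 genes and 7 others. *Ucp1* had log2 fold changes of 7.67 and 7.51, the fatty acid binding protein gene *Fabp3* 7.92 and 9.61, and the fatty acid elongase gene *Elovl3* 7.75 and 8.04. *Dio2*, which converts thyroxine to its active form, had 5.88 and 6.0. The glycerol kinase gene *Gk* (4.29 and 4.56), the acyl-CoA synthetase gene *Slc27a2* (4.06 and 4.68) and the mitochondrial carrier gene *Slc25a34* (4.41 and 4.72) rose by about as much as the 4 genes. Those 3 started higher, at 326 and 352, 49.3 and 38.7, and 60.3 and 57.7 normalized counts at RT, and reached 6399 and 8401, 818 and 1032, and 1306 and 1437.

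**Figure D2:**
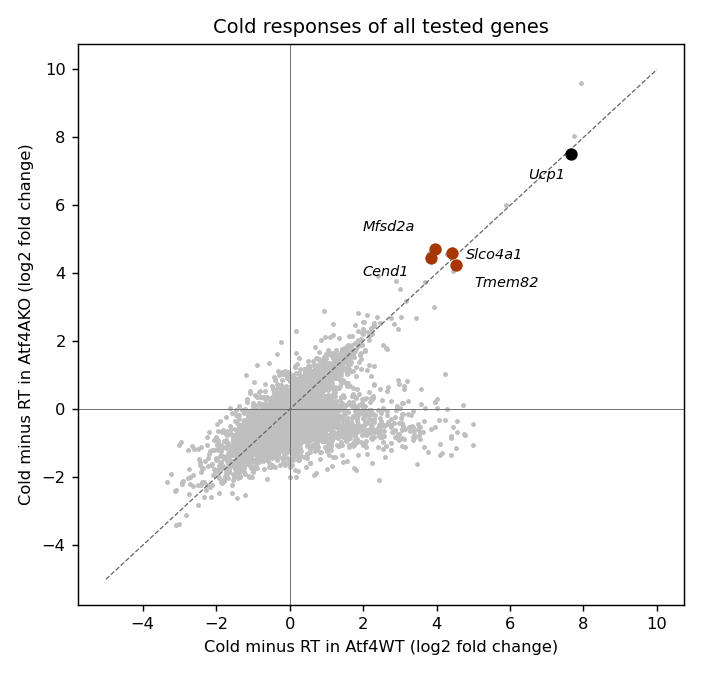
Cold log2 fold change in Atf4WT (x axis) against that in Atf4AKO (y axis), with a grey point for each of the 13404 tested genes, *Slco4a1*, *Mfsd2a*, *Tmem82* and *Cend1* as named brown points, *Ucp1* as a black point and a dashed line of equal values. The 4 genes lie together near the dashed line at 3.86 to 4.53 on the x axis and 4.23 to 4.72 on the y axis, below *Ucp1* at 7.67 and 7.51, and both axes use the RT and cold libraries on which the 4 genes were chosen.

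Divided by the exon length of each gene, the level was highest for *Mfsd2a* and lowest for *Slco4a1*. The length takes all GENCODE exons of a gene together, whereas the counts are listed under RefSeq accessions. It may thus differ from the length of the counted transcripts, on which the order depends. In cold Atf4WT iWAT the normalized counts per kb ranged from 58 to 148 for *Mfsd2a*, from 44.6 to 105 for *Cend1*, from 23.6 to 53.4 for *Tmem82* and from 15.9 to 24.2 for *Slco4a1*. In cold Atf4AKO iWAT the ranges were 122 to 292, 42.4 to 133, 28.5 to 53.7 and 7.75 to 23.4, in the same order. The order held in 9 of the 12 libraries. Neighbours in it overlapped in range in the cold in both genotypes, except *Tmem82* and *Slco4a1* in Atf4AKO, and *Mfsd2a* exceeded *Cend1* in 1 of the 3 cold Atf4WT libraries.

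The choice of the genes did not directly use the difference between the genotypes, which was tested at each temperature with limma over all 13404 genes. The choice did ask for low RT counts and large rises in both genotypes, which favours like values, so these tests are not free of it. For *Mfsd2a*, cold Atf4AKO iWAT had 476 ± 192 normalized counts and cold Atf4WT iWAT 227 ± 101 (SD, n = 3). The log2 difference was 1.07 ± 0.37 (SE, 95% interval 0.26 to 1.89), or 2.11-fold higher in Atf4AKO, with an unadjusted p of 0.0143 and an adjusted p of 0.239 in limma. It thus passed the threshold by which the study counted differentially expressed genes, a fold change over 1.5 with an unadjusted p under 0.05, which 6.4% of the tested genes also passed, but not the adjusted threshold, which 4 genes (0.0298%) passed. The unadjusted p was 0.0701 without Atf4WT cold replicate 0 (log2 difference 0.73), 0.0706 without Atf4AKO cold replicate 2 (0.80) and 0.101 with the lymphocyte marker score as a covariate, so the threshold of the study was not passed in these fits. The ranges of the genotypes overlapped, and the adjusted p ranged from 0.0786 to 0.998 over the alternatives. The log2 SD of *Mfsd2a* was 0.17 and 0.26 at RT and 0.67 and 0.64 in the cold (Atf4WT, then Atf4AKO). The SE and interval above thus rest on a spread that takes in the tighter RT libraries. Fitted to the 2 cold groups alone, limma gave an unadjusted p of 0.0394 and an adjusted p of 0.465.

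The other 3 genes differed between cold Atf4AKO and Atf4WT iWAT by less than the spread between replicates. The log2 difference was -0.40 for *Slco4a1* (95% interval -1.44 to 0.64), 0.03 for *Tmem82* (-1.24 to 1.31) and 0.05 for *Cend1* (-1.08 to 1.17), with adjusted p of 0.789, 0.988 and 0.982 in limma. These intervals still hold differences of more than 1.5-fold in either direction. At RT none of the 4 genes passed, with log2 differences of -0.57 for *Slco4a1* (-1.61 to 0.47), 0.31 for *Mfsd2a* (-0.50 to 1.13), 0.33 for *Tmem82* (-0.95 to 1.60) and -0.55 for *Cend1* (-1.67 to 0.58), and an adjusted p of 1 each. At RT 1 of the 13404 genes (0.00746%) passed the adjusted threshold and 0.463% passed the threshold of the study.

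The interaction, that is the cold response of Atf4AKO minus that of Atf4WT, was 0.17 for *Slco4a1* (95% interval -1.31 to 1.65), 0.76 for *Mfsd2a* (-0.39 to 1.91), -0.29 for *Tmem82* (-2.10 to 1.51) and 0.59 for *Cend1* (-1.0 to 2.19), in log2 units. Limma's adjusted p ran from 0.968 to 0.999. Choosing genes with large rises in both genotypes favours like responses, so this comparison is not free of the selection. Over all genes 0% passed the adjusted threshold of limma and 4.63% the threshold of the study, 928 genes had an unadjusted p under 0.05, and at the adjusted threshold edgeR called 0 genes and DESeq2 132. The lymphocyte markers differed between the cold groups as given above, and with their mean log2 value as a covariate the cold difference of *Mfsd2a* was 1.29 (limma adjusted p 0.998).

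**Figure D3:**
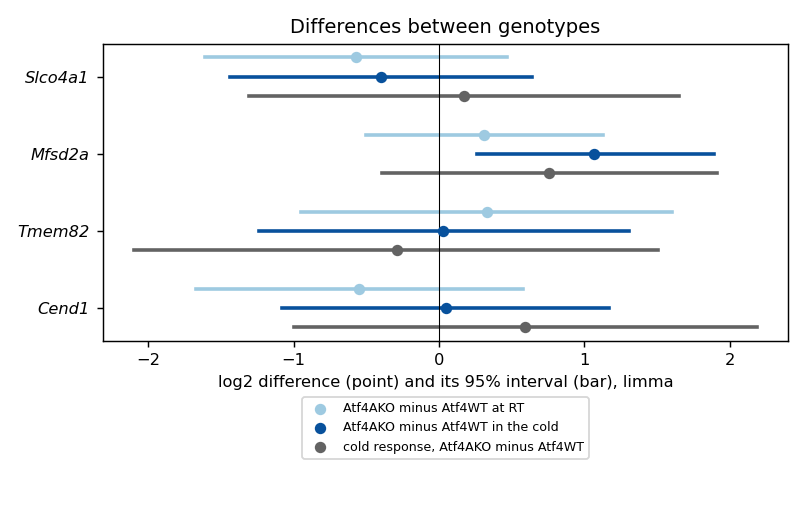
Log2 difference between Atf4AKO and Atf4WT iWAT at RT and in the cold, and the difference of the cold responses, for each of the 4 genes, with points for the estimates and bars for 95% intervals. Of all intervals only that of *Mfsd2a* in the cold, 0.26 to 1.89, excludes 0. The intervals use the spread shared by the 4 groups, and the cold libraries of *Mfsd2a* spread more than its RT libraries.

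Over the 12 libraries, each gene was centred on its own mean log2 value and compared by the root mean square (RMS) difference within a set of 11843 genes, those whose mean reached 50 normalized counts and *Slco4a1*, which has a lower mean. Nearest to *Slco4a1* were *Slc27a2* (0.39), *Slc25a34* (0.48), *Tmem82* (0.55), *Cend1* (0.62) and *Gk* (0.62). Nearest to *Tmem82* were *Slc25a34* (0.54), *Slco4a1* (0.55), *Slc27a2* (0.60), *Pigr* (0.63) and *Gk* (0.70). *Cend1* was nearest to the acyl-CoA thioesterase gene *Acot1* (0.59), then *Gk* (0.61), *Slco4a1* (0.62), the phosphoethanolamine and phosphocholine phosphatase gene *Phospho1* (0.62) and *Slc27a2* (0.63). *Mfsd2a* was nearest to *Gk* (0.44), then *Phospho1* (0.55), *Slc27a2* (0.58), the fatty acid oxidation gene *Cpt1b* (0.69) and *Cyp2b10* (0.71). Among the 4 genes, *Mfsd2a* was 0.79 to 0.85 from the others, and *Tmem82* and *Cend1* were 0.79 from each other. Most of this likeness is the step from RT to cold that the selection used.

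**Figure D4:**
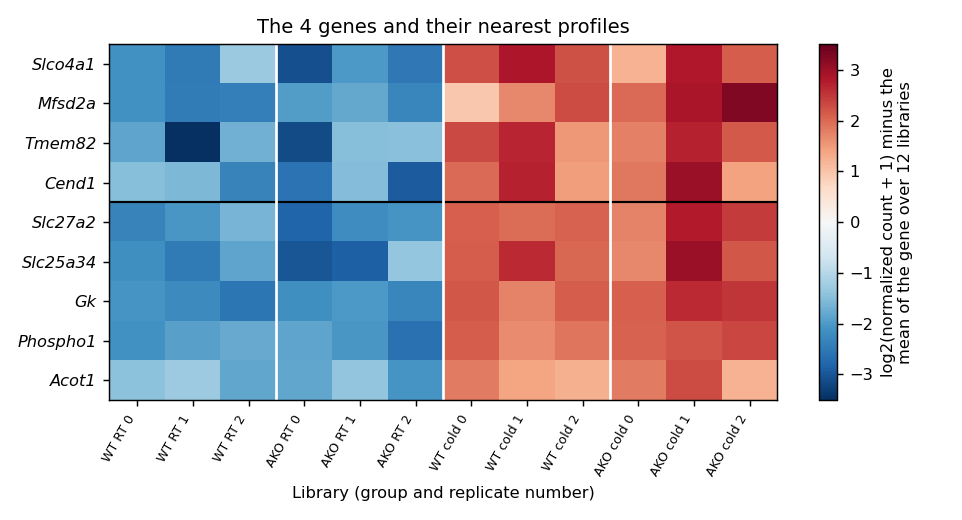
Heat map of log2(normalized count + 1) minus the mean of each gene over the 12 libraries, with libraries as columns by group and replicate number and genes as rows, *Slco4a1*, *Mfsd2a*, *Tmem82* and *Cend1* above the black line and *Slc27a2*, *Slc25a34*, *Gk*, *Phospho1* and *Acot1* below it. Rows are blue (under the mean) at RT and red (over it) in the cold, and among the cold columns *Mfsd2a* is palest in replicate 0 and darkest in replicate 2 of each genotype, while the other 3 of the 4 genes are darkest in replicate 1.

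Within the cold libraries, which the selection did not use as separate values, *Slco4a1*, *Tmem82* and *Cend1* were highest in replicate 1 of both genotypes, and *Mfsd2a* in replicate 2. Over the 6 cold libraries, *Tmem82* and *Cend1* had a Pearson r of 0.82 (exact permutation p 0.0514, adjusted 0.308) and a Spearman rho of 0.83 (exact permutation p 0.0583, adjusted 0.308), and r was 0.98 without the 2 libraries farthest from the median of *Tmem82*. The r of *Mfsd2a* with the other 3 genes lay between -0.10 and 0.04, and its rho between -0.37 and -0.09. Without the 2 farthest libraries its r lay between 0.11 and 0.28. The 6 libraries were pooled over the genotypes without centring, so the values of *Mfsd2a* also hold its difference between the genotypes. These relations are 2 kinds among 12 computed after the data were seen, none passed adjustment over the 12, and 3 libraries per genotype are too few for values within a genotype.

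*Tmem82* and *Cend1* each lie directly behind a gene of a mitochondrial carrier on the same strand. *Tmem82* starts 191 bases after the end of *Slc25a34*, a mitochondrial carrier of little described substrate, which had 60.3 ± 13.5 and 57.7 ± 40.8 normalized counts at RT and 1306 ± 306 and 1437 ± 692 in the cold (Atf4WT, then Atf4AKO). Its log2 fold change was 4.41 (limma adjusted p 9.3e-05) and 4.72 (7.16e-05). *Tmem82* amounted to 8.72% to 14.1% of the *Slc25a34* count in cold Atf4WT libraries and 9.7% to 13.0% in cold Atf4AKO libraries, against 4.08% to 13.8% and 8.57% to 30.6% at RT. The share in the cold thus lay inside or close to the range at RT, which is wide. The RT shares rest on 2 to 12 reads of *Tmem82* per library, so they can hardly show whether the share changed. Over the 6 cold libraries the pair had an r of 0.84 (exact permutation p 0.0403, adjusted 0.308) and a rho of 0.89 (exact permutation p 0.0333, adjusted 0.308), and r was 0.87 without the 2 farthest libraries. Whether reads that run on from *Slc25a34* add to the *Tmem82* count was not tested. *AI507597*, an antisense gene over exons of *Tmem82*, was not analysed here, and the strand setting of the counting is not given in the sources used here, so reads of the pair cannot be told apart.

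By its GENCODE position *Cend1* starts 253 bases after *Slc25a22*, a mitochondrial glutamate carrier. The RefSeq start used for the bases shown above lies closer to it, with 181 bases between. *Slc25a22* had 4157 ± 904 and 4604 ± 350.4 normalized counts at RT and 6634 ± 258 and 7506 ± 1266 in the cold, and rose by 0.70 (limma adjusted p 0.00635) and 0.69 (0.00772) on the log2 scale, far less than *Cend1*. *Cend1* amounted to 0.135% to 0.225% and 0.0621% to 0.179% of its count at RT and to 1.25% to 2.74% and 0.904% to 2.89% in the cold, with no overlap between temperatures. *Cend1* was chosen for low RT counts and a large cold rise, so its larger rise and this separation follow from the selection. Its RT shares rest on 3 to 10 reads of *Cend1* per library. The r of the pair over the cold libraries was 0.24 (exact permutation p 0.64, adjusted 0.854), with a rho of 0.03.

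**Figure D5:**
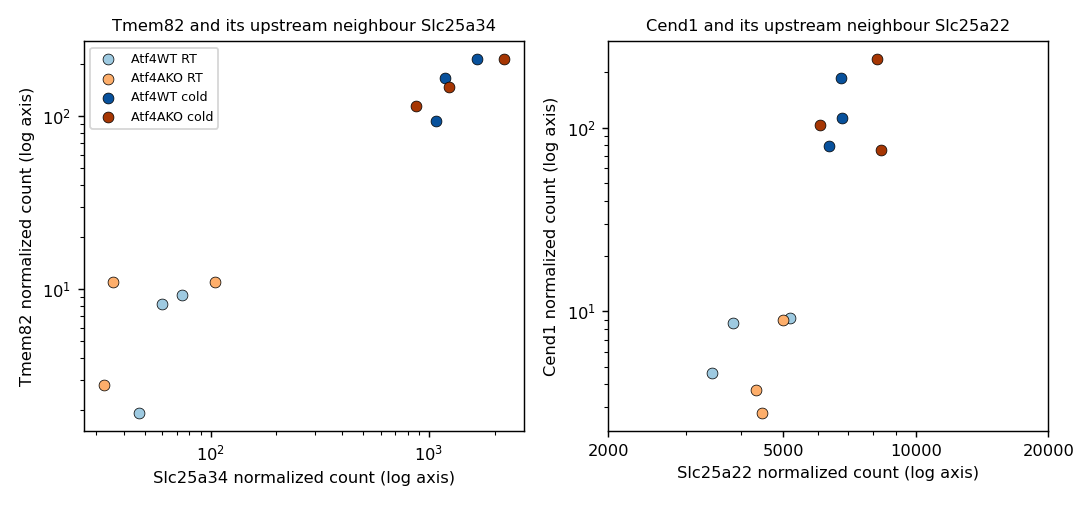
Normalized count of *Tmem82* against *Slc25a34* and of *Cend1* against *Slc25a22*, both axes on a log scale, with a point for each of the 12 libraries coloured by group. The *Tmem82* points of the cold libraries lie to the upper right of those at RT, as both genes are higher there, whereas the *Cend1* points lie far above those at RT with a small shift to the right, *Slc25a22* having risen by 0.70 and 0.69 on the log2 scale. The upward shifts of *Tmem82* and *Cend1* are those for which they were chosen.

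Within 100 kb of the 4 genes 22 listed genes were tested. In Atf4WT iWAT 4 of them rose and 5 fell, and in Atf4AKO iWAT 4 rose and 6 fell, out of backgrounds of 17% and 14.9%, and 14.8% and 11%. No listed gene lay within this distance of *Slco4a1*. Near *Mfsd2a* 0 genes rose, and *Mycl*, a MYC family transcription factor, fell from 776 ± 482 to 140.5 ± 40.9 normalized counts in Atf4WT and from 755 ± 55 to 133 ± 62.5 in Atf4AKO (log2 -2.33 and -2.59, limma adjusted p 0.00175 and 0.00119). Near *Tmem82*, *Plekhm2* rose by 0.43 and 0.50 (adjusted p 0.0185 and 0.00982), and *Ddi2* by 0.86 in Atf4AKO (adjusted p 0.00987). Near *Cend1*, the tetraspanin genes *Tspan4* (-0.77 and -1.01, adjusted p 0.0052 and 0.00156) and *Cd151* (-0.50 and -0.41, adjusted p 0.00992 and 0.0283) fell in both genotypes.

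The other genes of each family or pathway, with the 4 genes left out, were counted at limma's adjusted threshold. The shares over all tested genes to set beside each count are 17% higher and 14.9% lower in Atf4WT and 14.8% and 11% in Atf4AKO, at medians of 0.00 and -0.03. Of the 14 other organic anion transporter genes 4 were listed. *Slco2b1* fell from 4186 to 1828 in Atf4WT and from 3635 to 1664 normalized counts in Atf4AKO (log2 -1.18 and -1.16, adjusted p 0.000691 and 0.000928). *Slco5a1* rose in Atf4WT by 2.43 (adjusted p 0.0411) and had -0.77 in Atf4AKO (adjusted p 0.511), at means of 15.5 and 4.73 normalized counts at RT and 78.5 and 2.51 in the cold. With the lymphocyte marker score as a covariate its Atf4WT value was -0.82, and 9 more of its 21 alternatives, among them 8 of the fits that left out 1 library, lost the call (adjusted p up to 0.15). Of 15 tested genes of thyroid hormone handling 4 rose and 4 fell in Atf4WT and 6 rose and 2 fell in Atf4AKO, with medians of 0.09 and 0.15. Among them the amino acid and thyroid hormone transporter subunit gene *Slc3a2* rose by 1.00 and 1.22 (adjusted p 0.000245 and 8.73e-05), and *Hr*, a corepressor of the thyroid hormone receptor, fell by 1.55 and 0.79 (adjusted p 0.00024 and 0.00993).

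For the relatives of *Mfsd2a*, 2 of 20 other *Mfsd* genes rose and 3 fell in Atf4WT, and 3 rose and 1 fell in Atf4AKO, shares near or under the 17% and 14.9%, and 14.8% and 11%, of all genes, with median log2 fold changes of -0.07 and 0.13. *Mfsd2b*, a sphingosine-1-phosphate exporter and its nearest relative, went from 34 to 62.6 and from 32.4 to 58.2 normalized counts, a rise of 0.86 and 0.88 (adjusted p 0.0247 and 0.0267) that was lost in 5 of its alternatives in each genotype. Of 30 tested genes of lysophospholipid and phosphatidylcholine metabolism 9 rose and 0 fell in Atf4WT, and 9 rose and 1 fell in Atf4AKO, against 17% and 14.9%, and 14.8% and 11%, of all genes, with medians of 0.12 and 0.15. The choline kinase genes *Chka* (0.82 and 0.79, adjusted p 0.00602 and 0.00866) and *Chkb* (1.05 and 1.18, adjusted p 0.00602 and 0.00409) and the ethanolamine pathway gene *Pcyt2* (1.10 and 1.02, adjusted p 7.53e-05 and 0.000115) were among those that rose.

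Of 18 cell cycle exit genes, the group to which the name of *Cend1* refers, 1 rose and 6 fell in each genotype, where 14.9% of all genes fell in Atf4WT and 11% in Atf4AKO, with medians of -0.13 and -0.31. The cyclin-dependent kinase inhibitor gene *Cdkn1a* rose by 1.14 and 1.66 (adjusted p 0.000259 and 4.06e-05). The retinoblastoma relative *Rbl1* fell by 0.74 and 0.70 (adjusted p 0.00172 and 0.00253). Of 20 thermogenic adipocyte genes 17 rose in each genotype and 1 fell in Atf4WT, with medians of 2.13 and 2.42. Between the genotypes, limma and edgeR called 0 of the 106 genes of these lists at the adjusted threshold in the cold, at RT and in the interaction, and DESeq2 called 7 in the cold and 0 in the other comparisons. Over all genes in the cold, limma called 4, edgeR 3 and DESeq2 590. With limma 13, 3 and 8 of the 106 list genes had an unadjusted p under 0.05 in the cold, at RT and in the interaction. Over all 13404 tested genes the numbers were 1571, 205 and 928. In whole tissue, fewer cells of a type and less RNA per cell cannot be told apart.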

How the data were processed

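Polyadenylated RNA of whole iWAT was sequenced in 12 libraries. The deposited values are a normalized signal that the authors made by filtering reads with SOAPnuke, mapping to mm10 with STAR, counting uniquely mapped reads with featureCounts and dividing by DESeq2 size factors (pyDESeq2), with versions not given in the sources used here. Division by the value of 1 read gave whole reads for 100% of values within 0.001 reads, and the smallest read number of any listed gene was 1, so a gene with 0 reads in some library is not in the table.

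From these values, limma 3.58.1 in R 4.3.3 (lmFit, eBayes with trend) was fitted to log2(normalized count + 1) for 13404 genes with a mean of at least 10, with the 4 groups as means, and p-values were Benjamini-Hochberg adjusted over all tested genes (threshold 0.05). The log scale shrinks the fold changes of low genes. The members and lists were chosen with earlier results of these data known. The named genes were the 4 members, *Ucp1* and *Atf4*, genes at the bounds of the selection, the 5 nearest genes by RMS difference, neighbours within 100 kb and up to 4 genes per list by size of the cold response, of which a part is given in the text. The lists were 6 context lists and markers of 11 cell types. Schwann cell markers had 0 higher and 1 lower in Atf4WT and 0 and 0 in Atf4AKO, macrophage markers 0 and 0 in both, endothelial markers 1 and 3, then 2 and 1, adipocyte markers 0 and 1, then 0 and 0, and muscle, epithelial and erythroid markers 0 and 0 in both. Over all tested genes 17% were higher and 14.9% lower in Atf4WT, and 14.8% and 11% in Atf4AKO.

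Gene positions and exon lengths came from GENCODE (GRCm38), in which 13959 listed genes had a unique symbol, and promoters from RefSeq. Alternatives were pseudocounts of 0.5 and 5, no filter or a mean of 50, rescaling to the same 75th percentile, a fit of the 2 groups compared, the replicate block, the lymphocyte score as covariate, each library left out, and edgeR 4.0.16 (quasi-likelihood) and DESeq2 1.42.0 on the recovered reads. The fits were tested on simulated data. Correlations used scipy 1.17.1 in Python 3.11.15, tested by exact permutation (two-sided, smallest possible p 0.00278), and figures matplotlib 3.10.9.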

Additional observations from a re-analysis of the deposited data

How the results depend on the processing

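The 4 genes kept a cold rise of at least 3.33 on the log2 scale in each genotype under every alternative run, but its size depends on the scale for the lowest gene: for *Slco4a1* it was 3.49 (Atf4WT) and 3.39 (Atf4AKO) with a pseudocount of 5, and 5.26 in Atf4AKO with DESeq2. *Slco4a1* could not be fitted with the filter at a mean of 50. With the lymphocyte score as a covariate, which differs between the cold groups and so cannot be told apart from them, the rise of *Cend1* in Atf4WT was 4.94, its cold genotype difference -1.25 and its interaction -0.65, *Slco5a1* in cold Atf4WT was -0.82, and 5 in place of 9 neighbours passed in Atf4WT. For *Mfsd2a* the cold genotype difference of 1.07 passed only at a fold of 1.5 with an unadjusted p under 0.05, a call lost in 3 fits (Atf4WT cold replicate 0 or Atf4AKO cold replicate 2 left out, or the lymphocyte covariate), and ranged from 0.73 to 1.43 when a library was left out. Cold differences that were small in the first place changed sign: *Tmem82* was -0.01 after rescaling to the same 75th percentile and -0.30 to 0.29 without 1 library, *Slco4a1* -0.78 to 0.01, and *Cend1* -0.42 to 0.39. The RT difference of *Tmem82* ran from -0.25 to 0.88. The interaction of *Slco4a1* was -0.11 with a pseudocount of 5 and -0.20 to 0.58 without 1 library, and that of *Tmem82* -0.85 to 0.29. The causes were not tested.

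At the adjusted threshold, limma, edgeR and DESeq2 called 4, 3 and 590 genes between the genotypes in the cold (unadjusted 1571, 1748 and 1642), 1, 1 and 5 at RT (205, 292 and 276) and 0, 0 and 132 in the interaction (928, 963 and 965). The labels give no shared origin for same-numbered libraries, and 9 of their 18 pairs had a correlation of deviations over 0.1 (range -0.22 to 0.42), so the numbers were not taken as pairs. All 6 pairs of replicate 1 were over 0.1 (0.18 to 0.40), against 1 of 6 for replicate 0 and 2 of 6 for replicate 2. A library correlated best with its own number, among the 3 libraries of another group, in 18 of 36 comparisons. Whether same-numbered libraries share an origin was not tested, and the permutations over the 6 cold libraries did not use the numbers. With the replicate block *Mfsd2a* in the cold kept 1.07 (adjusted p 0.199), and no call of the 4 genes changed. The unadjusted limma p of *Cend1* went from 0.308 to 0.0921 at RT and from 0.43 to 0.183 in the interaction. At RT 1 to 6 reads per library limit the precision for *Slco4a1*.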
